A study of Mus musculus with 12 samples.

Results

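Sall1, Sall2, Sall3 and Sall4 are the mouse members of the spalt-like gene family, and the accessibility of the chromatin around them was followed through the reprogramming of fibroblasts to induced pluripotent stem cells. Regions were taken from the set that the authors counted by ATAC-seq, in which a transposase inserts adapters into open DNA. A region was included where it overlapped the annotated span of 1 of the 4 genes in the mouse build mm10 or lay within 10 kb of either end. This gave 19 of 115000 regions: 6 at Sall1, 4 at Sall2, 3 at Sall3 and 6 at Sall4. The 4 genes stand among 18088 protein-coding genes that had at least 1 region by the same rule. The family was chosen by measured values, the CPM of the Sall4 regions, which were highest at Stage 1, so the levels of Sall4 are given as a description, without a test, and tests are given for Sall1, Sall2 and Sall3.

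Each of 4 groups had 3 libraries, all from mice of a mixed C57BL/6 x 129 background. The MEF group was mouse embryonic fibroblasts, the starting cells. Stage 1 cells were collected on day 6 and Stage 2 cells at day 6+4, and the iPSC group was an established line or lines of induced pluripotent stem cells. Stage 1, Stage 2 and iPSC cells were sorted for green fluorescence driven by Oct4, whereas the fibroblasts were not sorted, so the effect of the sort and that of the stage cannot be told apart in any comparison with MEF. The labels call the procedure 3c enhanced reprogramming without saying what 3c stands for, and they do not say whether the replicates came from separate cultures or embryos, so that spread between libraries, which p-values rest on, may be technical.

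Spalt-like proteins are zinc-finger transcription factors that bind AT-rich DNA and recruit the NuRD complex, a repressor that joins a chromatin remodeller to histone deacetylases. Sall4 is part of the transcription factor network of embryonic stem cells and of the early embryo, where it works together with Oct4 and Nanog, and its protein is also present in germ cells. Sall1 is needed for kidney development and is also expressed in embryonic stem cells, Sall3 acts in the developing nervous system and limb, and Sall2, the most divergent member, has been studied in neural development and in growth control. Open chromatin near a gene is not a measure of its transcription, and transcripts were not measured here.

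RefSeq start windows of the build GRCm38.p6 were examined for 2 of the 4 genes. Each ran from 250 bases before to 50 bases after an annotated transcription start. The other family members were left out here, and whether they had such windows is not reported. At the 2 genes, accessible regions sat on some annotated starts and not on others. The windows were 3 of Sall1 and 2 of Sall2. All are on the minus strand and printed 5′ to 3′, with capitals marking the GC box GGGCGG or its reverse complement CCGCCC. The first lies at chr8:89043463-89043762 inside Sall1 region 5, the second at chr8:89042813-89043112 inside Sall1 region 4, the third at chr14:52316274-52316573 on the edge of Sall2 region 2, which covers 227 of its 300 bases, and the fourth at chr14:52328621-52328920, where no region was called.
Sall1 window 2: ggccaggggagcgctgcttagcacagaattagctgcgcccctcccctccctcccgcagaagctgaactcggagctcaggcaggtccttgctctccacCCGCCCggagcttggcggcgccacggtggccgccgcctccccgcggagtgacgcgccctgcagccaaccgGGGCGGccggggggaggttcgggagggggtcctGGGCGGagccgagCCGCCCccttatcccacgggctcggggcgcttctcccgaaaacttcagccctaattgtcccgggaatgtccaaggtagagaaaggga
Sall1 window 3: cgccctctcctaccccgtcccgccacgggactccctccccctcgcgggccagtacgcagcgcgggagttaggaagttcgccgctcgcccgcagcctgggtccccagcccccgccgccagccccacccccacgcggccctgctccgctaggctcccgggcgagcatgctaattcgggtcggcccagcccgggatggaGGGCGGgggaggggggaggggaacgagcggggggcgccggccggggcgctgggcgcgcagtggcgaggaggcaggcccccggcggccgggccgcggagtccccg
Sall2 window 2: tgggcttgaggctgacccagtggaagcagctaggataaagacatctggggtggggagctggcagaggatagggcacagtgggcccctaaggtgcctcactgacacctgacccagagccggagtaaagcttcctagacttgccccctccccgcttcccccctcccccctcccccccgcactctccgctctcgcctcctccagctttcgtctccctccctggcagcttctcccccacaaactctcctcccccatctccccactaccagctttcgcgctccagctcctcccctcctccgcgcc
Sall2 window 1: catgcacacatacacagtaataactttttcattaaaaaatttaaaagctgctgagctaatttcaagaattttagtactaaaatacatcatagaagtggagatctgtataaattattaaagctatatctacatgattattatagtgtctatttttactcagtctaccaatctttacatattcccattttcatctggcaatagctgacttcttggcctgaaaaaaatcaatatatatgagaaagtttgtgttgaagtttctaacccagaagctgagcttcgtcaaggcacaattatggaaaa
The windows within Sall1 regions 5 and 4 had a GC content of 70.0% and 79.7%, with 27 and 39 CpG dinucleotides and 4 and 1 GC boxes. Sall2 window 2 had a GC content of 65.0%, 10 CpG and no GC box, and Sall2 window 1, at the upper end of the annotated gene, had a GC content of 30.3% and 1 CpG. Sall1 window 1, at chr8:89044113-89044412, lay in no region and had a GC content of 57.3%. Over all 32851 windows of the table the median GC content was 52.7% with 7 CpG, and 35.7% held a GC box on either strand. The octamer ATGCAAAT (in 1.74% of all windows), the AP-1 site TGAGTCA (5.20%) and the AT-rich hexamer ATATTA (7.51%), searched on both strands, were not found in these letters of any of the 5 windows. The first 3 printed windows were thus richer in GC than the median window, and the fourth was poorer.

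The libraries held 14310290 to 32229388 counted reads, of which 1034936 to 6261903 fell in regions. The share of reads in regions was 11.3% to 22.1% for MEF, 7.36% to 8.12% for Stage 1, 5.31% to 6.91% for Stage 2 and 4.49% to 5.25% for iPSC. Levels are given as CPM, reads per 1000000 reads in regions after TMM scaling, which corrects for differences in composition. Because the share of reads outside regions also rose through the groups, the reads expected in a region from the density outside regions are given beside the levels, and fold changes are given a second time scaled to all reads of a library. That second scaling moved the median of all genes by -0.97 (Stage 1 against MEF), -0.37 (Stage 2 against Stage 1), -0.33 (iPSC against Stage 2), -0.71 (iPSC against Stage 1), -1.35 (Stage 2 against MEF) and -1.71 (iPSC against MEF) on the log2 scale. Summed regions of pluripotent cell markers were higher in Stage 1 than in MEF for 12 of 12 genes. Those of fibroblast markers were lower for 10 of 12. Of all 17507 genes 64.9% were called in that comparison, 32.9% higher and 32.0% lower. Of 12 primitive endoderm markers 4 were higher and 6 lower in Stage 1 than in MEF, and of 10 neural markers 8 were higher, and the part of other cells in the Sall results was not tested. A larger share of cells with an open site and a site more open in each cell cannot be told apart in these bulk libraries.

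**Figure D1:**
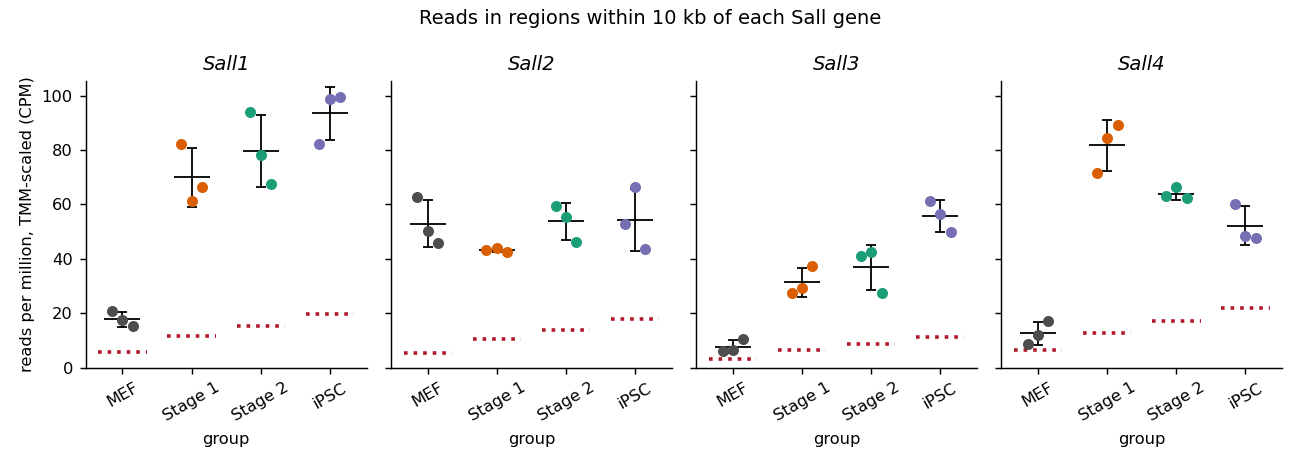
Reads in CPM (vertical axis) summed over the regions within 10 kb of each Sall gene, by group (horizontal axis). Points are libraries, bars the mean and SD of 3 libraries, and the dotted lines the CPM expected from the read density outside regions. Sall4 had its highest mean, 81.7 CPM, at Stage 1, Sall1 and Sall3 had theirs in iPSC, and the Sall2 groups overlapped in part.

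The summed level of Sall4 was lowest in fibroblasts, highest on day 6 and lower again at each later stage. The Sall4 sum was 8.77, 11.9 and 17.0 CPM in the MEF libraries, 71.4, 84.3 and 89.3 CPM in Stage 1, 62.9, 66.4 and 62.4 CPM at Stage 2, and 60.3, 48.2 and 47.7 CPM in iPSC. No library of 1 group overlapped with those of another, in the order Stage 1, Stage 2, iPSC, MEF. Because the family was chosen by these levels, the separation is a description and lends the order no further support. The group means were 12.6 ± 4.14 CPM in MEF, 81.7 ± 9.24 in Stage 1, 63.9 ± 2.16 at Stage 2 and 52.1 ± 7.14 in iPSC (SD over 3 libraries). The Stage 1 level stood 6.96-fold above that of MEF (log2 fold change 2.80, SE 0.16). Stage 2 was below Stage 1 by a log2 fold change of -0.36 (SE 0.14), and iPSC below Stage 1 by -0.64 (SE 0.16).

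Set against the read density outside regions, the Sall4 sum again had its highest values in Stage 1, and its iPSC values were close to those of MEF. That closeness did not hold for the regions at Sall4 itself, described below. Sall4 regions together held 1.84 to 2.08 times the expected reads in MEF, 5.61 to 7.43 times in Stage 1, 3.23 to 4.31 times at Stage 2 and 1.96 to 2.89 times in iPSC libraries. The expected reads made up a larger part of the iPSC level, 21.9 ± 2.03 of 52.1 CPM, than of the Stage 1 level, 12.7 ± 0.729 of 81.7 CPM (SD, n = 3 each). After subtraction of the expected reads, a step added after the data were seen, the log2 fold change was 3.49 for Stage 1 against MEF and -1.19 for iPSC against Stage 1. Scaled to all reads of a library, the corresponding changes were 1.85 and -1.38, with the median of all genes at -0.97 and -0.71.

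**Figure D2:**
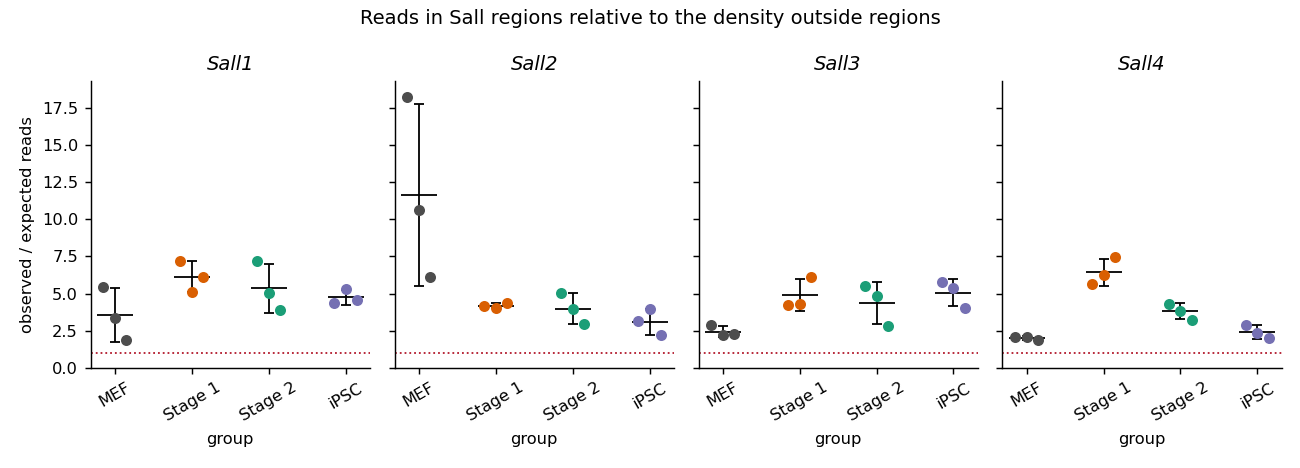
Observed reads in the regions of each Sall gene divided by the reads expected from the density outside regions (vertical axis, no unit), by group (horizontal axis). Points are libraries and bars the mean and SD of 3 libraries, and the dotted line marks a ratio of 1. Sall4 reached 5.61 to 7.43 in Stage 1, and Sall2 reached 6.12 to 18.2 in MEF.

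The 6 Sall4 regions fell into 2 sets. Regions 3 (chr2:168761051-168761550), 4 (chr2:168765251-168765300) and 5 (chr2:168766701-168767500) overlapped the gene, with region 5 across its upper end, and region 6 (chr2:168769151-168769750) lay 1.95 kb above that end. Regions 1 (chr2:168741101-168741750) and 2 (chr2:168741851-168742200) lay below the gene and inside the span of the neighbouring gene Atp9a, which encodes a phospholipid-transporting ATPase, so their reads may belong to either gene. Regions 1, 3, 5 and 6 had their highest mean at Stage 1, a description of the levels by which the family was chosen. In region 1 the Stage 1 and Stage 2 libraries overlapped, at 17.7 ± 2.83 and 16.3 ± 2.63 CPM. Its means were 4.92 ± 1.44 CPM in MEF and 13.0 ± 5.40 CPM in iPSC (SD, n = 3 each). Stage 1 and Stage 2 means were nearly equal in region 2, at 6.71 and 6.77 CPM, and in region 4, at 2.05 and 2.21 CPM. Regions 2 and 4 were too low to pass the filter on low counts.

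Region 5, at the upper end of Sall4 and its widest region at 800 bases, had the highest mean CPM of the set in Stage 1. Per kb its Stage 1 mean was 29.0 CPM, against 41.0 in the 50-base region 4 and 19.2 to 27.3 in the others. Region 5 held 14, 5 and 8 reads in MEF, 29, 24 and 44 in Stage 1, 29, 26 and 22 at Stage 2, and 20, 16 and 14 in iPSC libraries. As CPM these were 2.77, 1.13 and 3.21 in MEF, 21.9, 20.8 and 26.8 in Stage 1, 16.0, 15.6 and 14.8 at Stage 2, and 14.2, 12.1 and 12.7 in iPSC. The Stage 1 libraries were all above those of the other groups. The choice of the family used the levels of the Sall4 regions, so this separation and the values of region 6 are only a description. Region 6 followed the same order, with a mean of 1.31 ± 1.35 CPM in MEF, 16.3 ± 0.354 in Stage 1, 11.9 ± 1.01 at Stage 2 and 7.87 ± 1.35 in iPSC (SD over 3 libraries). The log2 fold change between iPSC and Stage 1 was -1.06 (SE 0.35) in region 6 and -0.85 (SE 0.28) in region 5.

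In fibroblasts the regions at Sall4 itself were at or near the read density outside regions. Summed over the 3 MEF libraries, region 3 held 8 reads against 13.5 expected, region 5 held 27 against 21.6 and region 6 held 12 against 16.2. In the iPSC libraries the same regions held 29 reads against 13.1, 50 against 21.0 and 30 against 15.7. The excess of Sall4 in MEF came from regions 1 and 2 in the Atp9a span, and region 2 was the only Sall4 region on the authors' interval list for MEF. Regions 1 and 2 held 55 reads each in MEF against 17.6 and 9.47 expected. In iPSC they held 51 and 19 reads against 17.0 and 9.18. Without these 2 regions, an alternative added after the data were seen, the Sall4 log2 fold change was 3.97 for Stage 1 against MEF and -0.54 for Stage 2 against Stage 1. Region 3, inside the gene, was on the Stage 1 and Stage 2 lists, and its mean was 0.760 ± 0.410 CPM in MEF, 13.4 ± 2.29 in Stage 1, 9.54 ± 1.62 at Stage 2 and 7.47 ± 1.09 in iPSC (SD over 3 libraries). Region 4, only 50 bases long, held between 0 and 6 reads in each library.

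**Figure D3:**
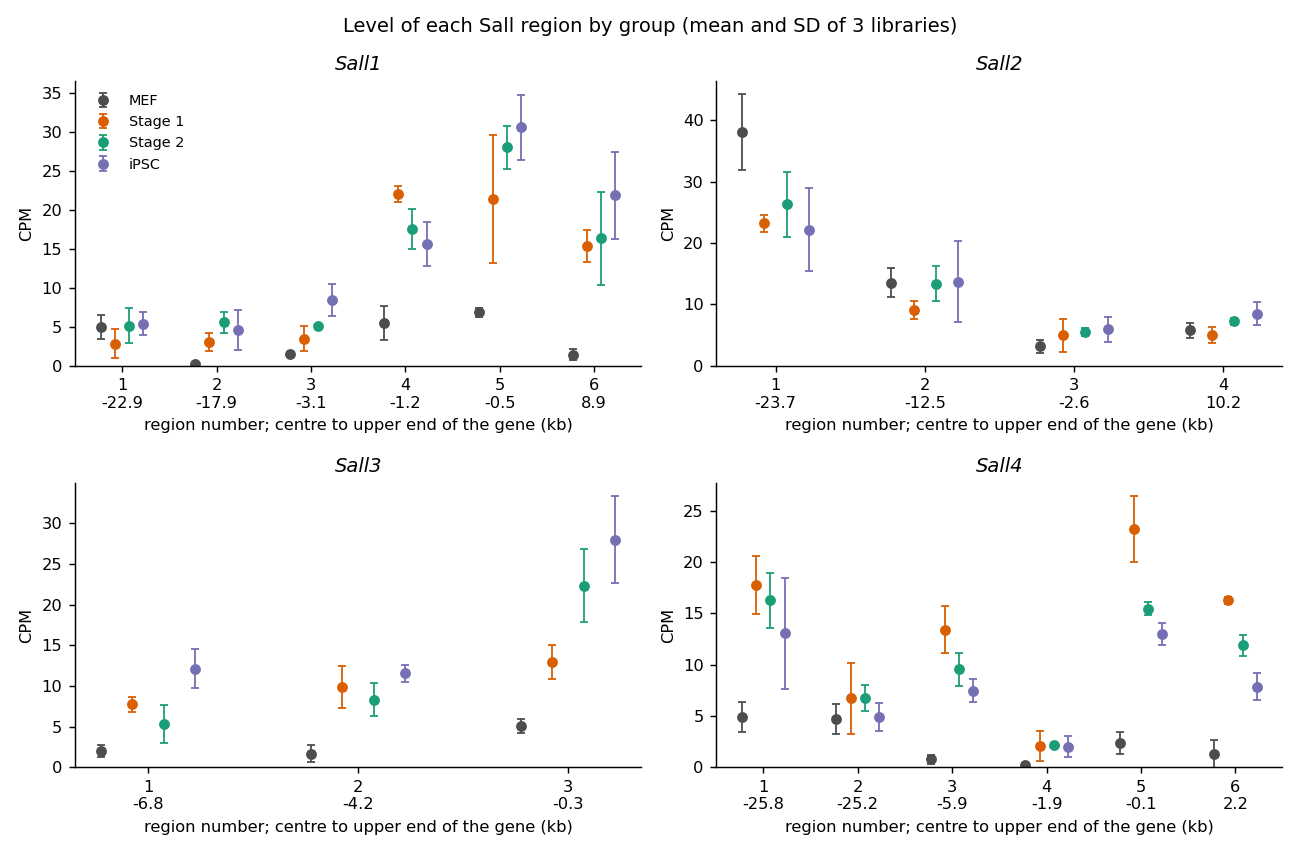
Level of each of the 19 Sall regions in CPM (vertical axis), with regions in genome order and the distance in kb from each region's centre to the upper end of the gene under its number (horizontal axis). Points are means and bars the SD of 3 libraries per group. Sall4 regions 3, 5 and 6 were highest in Stage 1, and Sall3 region 3 was highest in iPSC.

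Of the other 3 genes, Sall1 and Sall3 were higher and Sall2 lower in Stage 1 than in MEF (edgeR quasi-likelihood test, adjusted over all genes at a threshold of 0.05), beside 64.9% of all genes called in that comparison, 32.9% higher and 32.0% lower. None of the 3 passed the test between Stage 2 and Stage 1, where 15.8% of all genes did; their unadjusted p-values were 0.155 for Sall1, 0.0491 for Sall2 and 0.237 for Sall3, and DESeq2 gave the same result for each. In iPSC against Stage 1, Sall1 and Sall3 were higher, beside 25.5% of all genes called and 14.6% called higher, and in iPSC against Stage 2 only Sall3 was, beside 9.41% called and 5.59% higher. Against MEF, Sall1 and Sall3 were higher and Sall2 was not called in Stage 2 (67.1% of all genes called, 33.8% higher) and in iPSC (65.1% called, 32.9% higher).

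Of the 13 regions at these 3 genes, 9 passed the filter on low counts. In Stage 1 against MEF, 6 of the 9 were higher and 2 lower, where 80.5% of 71069 regions were called, 40.2% higher and 40.3% lower. The counts were 6 higher and 1 lower in Stage 2 against MEF, where 82.6% of all regions were called, 41.4% higher and 41.2% lower. They were also 6 and 1 in iPSC against MEF, where 81.7% were called, 40.8% in each direction. With so large a share of all regions called between fibroblasts and later cells, the totals of Sall regions called in either direction stood near the background. The directions were not evenly split as they were over all regions. All the higher calls were at Sall1 and Sall3 and all the lower ones at Sall2.

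The regions of Sall1, which encodes a NuRD-recruiting factor of kidney progenitors and stem cells, together had a higher summed level in the 3 later groups than in fibroblasts. The Sall1 sum was 20.6, 17.6 and 15.2 CPM in MEF, 82.0, 61.4 and 66.2 CPM in Stage 1, 93.8, 78.0 and 67.3 CPM at Stage 2, and 82.2, 98.9 and 99.4 CPM in iPSC libraries. The MEF libraries lay below all the others, Stage 2 overlapped with Stage 1 and with iPSC, and the iPSC libraries were above those of Stage 1, narrowly, at 82.2 CPM or more against 82.0 CPM or less. The level was 3.84-fold higher in Stage 1 than in MEF (log2 fold change 1.94, SE 0.15, adjusted p = 2.8e-19). The log2 fold change scaled to all reads of a library was 0.97 (SE 0.28, adjusted p = 0.000822). The summed level was 1.33-fold higher in iPSC than in Stage 1 (log2 fold change 0.41, SE 0.14, adjusted p = 0.0247), and scaled to all reads of a library this turned to -0.33, against a median of -0.71 over all genes. Leaving out 1 library ended that call in 4 of 12 cases, Stage 1 replicates 2 and 3 and iPSC replicates 2 and 3, with log2 fold changes of 0.34, 0.36, 0.32 and 0.33. Relative to the density outside regions, Sall1 held 1.83 to 5.45 times the expected reads in MEF, 5.07 to 7.18 in Stage 1, 3.88 to 7.16 at Stage 2 and 4.39 to 5.33 in iPSC libraries.

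Most of the Sall1 reads of the 3 later groups fell in regions 4 and 5, which hold the start windows printed above, and in region 6 beyond the gene. Region 6 (chr8:89052751-89053400), 8.59 kb above the upper end, held 3, 9 and 4 reads in MEF, 22, 15 and 27 in Stage 1, 41, 26 and 16 at Stage 2, and 22, 35 and 26 in iPSC libraries. Its mean was 15.4 ± 2.04 CPM in Stage 1 against 1.41 ± 0.742 in MEF (SD, n = 3 each; log2 fold change 3.53, SE 0.39, adjusted p = 8.05e-14), the widest change from MEF among the 3 Sall1 regions tested. Region 4 (chr8:89042651-89043200) rose by a log2 fold change of 1.92 (SE 0.26, adjusted p = 3.69e-10) and region 5 (chr8:89043301-89043950) by 1.60 (SE 0.26, adjusted p = 2.56e-08) in Stage 1 against MEF. Region 4 had its highest mean in Stage 1, 22.0 ± 1.03 CPM, and region 5 in iPSC, 30.6 ± 4.20 CPM, with 15.6 ± 2.83 CPM for region 4 there (SD, n = 3 each). Regions 1 to 3 (chr8:89021051-89021450, chr8:89026201-89026350 and chr8:89040951-89041200) had at most 31 reads in a library and did not pass the filter, and region 1 was the only Sall1 region on the MEF list. Region 1 had 2.82 ± 1.84 CPM in Stage 1 against 4.93 ± 1.53 CPM in MEF (SD, n = 3 each). Over the 3 libraries of a group it held 5.82 times the reads expected from the density outside regions in MEF, 1.75 times in Stage 1, 2.35 times at Stage 2 and 2.00 times in iPSC. By the same ratio region 4 had 4.77 in MEF, 9.63 in Stage 1, 5.78 at Stage 2 and 4.16 in iPSC. The narrow region 2 had 0.493 in MEF and 6.74 at Stage 2, where region 6 had 4.61, and region 3 had 2.51 in MEF and 4.88 in iPSC. The Sall1 regions thus did not all follow the order of their sum.

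The adjoining regions 4 and 5 had their maxima in different groups, and the share of the pair's reads that fell in region 4 was compared after this had been seen. The share was 40.2%, 36.8% and 38.3% at Stage 2 and 32.2%, 40.3% and 29.1% in iPSC libraries, against 42.9%, 51.1% and 61.7% in Stage 1. The Stage 2 and iPSC libraries were all below those of Stage 1, with means of 38.5 ± 1.69% at Stage 2 and 33.9 ± 5.80% in iPSC, against 51.9 ± 9.43% in Stage 1 (SD, n = 3 each). These shares are given as a description. In MEF the share was 43.5 ± 7.65%.

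Sall3, a family member of the developing nervous system, had a higher summed level in iPSC than in both earlier stages, and higher in those stages than in MEF. Its sum was 6.19, 6.45 and 10.5 CPM in MEF, 27.3, 29.3 and 37.5 CPM in Stage 1, 41.0, 42.4 and 27.3 CPM at Stage 2, and 61.1, 56.4 and 49.7 CPM in iPSC libraries. The iPSC libraries were above all others, the MEF libraries below all others, and Stage 2 overlapped with Stage 1. Sall3 was 4.40-fold higher in Stage 1 than in MEF (log2 fold change 2.14, SE 0.22, adjusted p = 6.39e-14). That change was 1.17 scaled to all reads and 0.44 with regions within 50 kb, both called. Sall3 was 1.76-fold higher in iPSC than in Stage 1 (log2 fold change 0.82, SE 0.19, adjusted p = 0.000732). Against Stage 2, iPSC were 1.50-fold higher (0.59, SE 0.18, adjusted p = 0.0253). Scaled to all reads of a library, neither of the last 2 calls held, with log2 fold changes of 0.09 and 0.23. The iPSC against Stage 2 call was lost without Stage 2 replicate 3 (0.43), iPSC replicate 1 (0.49) or iPSC replicate 2 (0.57). DESeq2 gave Sall3 a log2 fold change of 0.57 there but no adjusted p, and so no call. Relative to the density outside regions, Sall3 held 2.18 to 2.89 times the expected reads in MEF, 4.23 to 6.13 times in Stage 1, 2.78 to 5.53 times at Stage 2 and 4.03 to 5.76 times in iPSC libraries. By that measure the 3 later groups overlapped, and iPSC did not stand above Stage 1.

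All 3 Sall3 regions overlapped the gene on chromosome 18, passed the filter and had their highest mean in iPSC. Region 3 (chr18:80986401-80987000), at the upper end of the gene, held 25, 19 and 15 reads in MEF, 15, 14 and 25 in Stage 1, 42, 44 and 26 at Stage 2, and 44, 41 and 24 in iPSC libraries. In CPM it was 4.95, 4.31 and 6.02 in MEF, 11.3, 12.2 and 15.3 in Stage 1, 23.1, 26.4 and 17.5 at Stage 2, and 31.3, 30.9 and 21.8 in iPSC, and Stage 2 and iPSC libraries were above all those of Stage 1. It was the 1 tested region of Sall1, Sall2 and Sall3 that was called in Stage 2 against Stage 1 (log2 fold change 0.78, SE 0.26, adjusted p = 0.0412), beside 10.4% of all regions called and 6.14% higher. That call was lost in each alternative that changed the scaling, the filter or the test and in 10 of 12 fits without 1 library, remaining without MEF replicate 1 or iPSC replicate 3. Region 3 was also the 1 called in iPSC against Stage 1 (1.11, SE 0.26, adjusted p = 0.0016), beside 15.5% of all regions called and 8.55% higher. Regions 1 (chr18:80979951-80980400) and 2 (chr18:80982601-80983050) lay within the gene, with 12.1 ± 2.43 and 11.5 ± 1.09 CPM in iPSC against 2.00 ± 0.731 and 1.65 ± 1.04 CPM in MEF (SD, n = 3 each). In iPSC against Stage 2 none of the 9 regions was called, beside 1.61% of all regions; 1 of the 9, region 1 of Sall3, had an unadjusted p under 0.05 there, 0.00211, and DESeq2 called none of the 6 to which it gave an adjusted p.

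Sall2 had the highest summed level of the family in fibroblasts, most of it from region 1, which also lies in a neighbouring gene. Its sum was 62.6, 50.3 and 45.9 CPM in MEF, 43.3, 44.0 and 42.5 CPM in Stage 1, 59.5, 55.3 and 46.3 CPM at Stage 2, and 52.8, 66.2 and 43.7 CPM in iPSC libraries. The Stage 1 libraries were below those of MEF and Stage 2, whereas MEF, Stage 2 and iPSC overlapped. The level was 0.803 of that in MEF at Stage 1 (log2 fold change -0.32, SE 0.14, adjusted p = 0.0493), and this call was lost in 9 of the 12 fits that left out 1 library, with the weakest change, -0.17, without MEF replicate 1; it held without MEF replicates 2 and 3 and without Stage 2 replicate 3. Between iPSC and MEF the log2 fold change was 0.02, with a 95% interval of -0.26 to 0.31. Scaled to all reads of a library, Sall2 was lower than in MEF by a log2 fold change of -1.30 in Stage 1, -1.35 at Stage 2 and -1.69 in iPSC (adjusted p = 7.37e-06, 9.38e-07 and 1.41e-09), which lay near or below the medians of all genes given above. Sall2 held 6.12 to 18.2 times the expected reads in MEF, a spread that followed the share of reads in regions of the 3 libraries, and 2.21 to 5.02 times in the later libraries.

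The largest part of the Sall2 reads came from a region that also lies in a neighbouring gene. Region 1 (chr14:52304551-52305450), in the span of Mettl3, which encodes an RNA methyltransferase, took 43.6 ± 6.86% of the Sall2 reads in iPSC and 63.1 ± 1.30% in MEF (SD, n = 3 each). It held 31, 25 and 40 reads in Stage 1 and 227, 160 and 82 in MEF libraries, or 23.4, 21.7 and 24.4 CPM in Stage 1 and 45.0, 36.3 and 32.9 CPM in MEF. It was lower in Stage 1 than in MEF (log2 fold change -0.73, SE 0.19, adjusted p = 0.000324) and in iPSC than in MEF (-0.77, SE 0.19, adjusted p = 0.000201). Region 2 (chr14:52315851-52316500), at the inner start window printed above, was lower in Stage 1 than in MEF (-0.62, SE 0.29, adjusted p = 0.0458), a call that held with DESeq2 size factors, with scaling to all reads and without MEF replicate 3 but in no other alternative tried, and its mean was 13.7 ± 6.54 CPM in iPSC against 13.5 ± 2.41 CPM in MEF (SD, n = 3 each). Regions 3 (chr14:52325901-52326200) and 4 (chr14:52338551-52339100) held at most 34 reads in a library. Without region 1, an alternative added after the data were seen, Sall2 was no longer called in Stage 1 against MEF (log2 fold change -0.07) and was called higher in iPSC than in MEF (0.50, adjusted p = 0.0159).

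**Figure D4:**
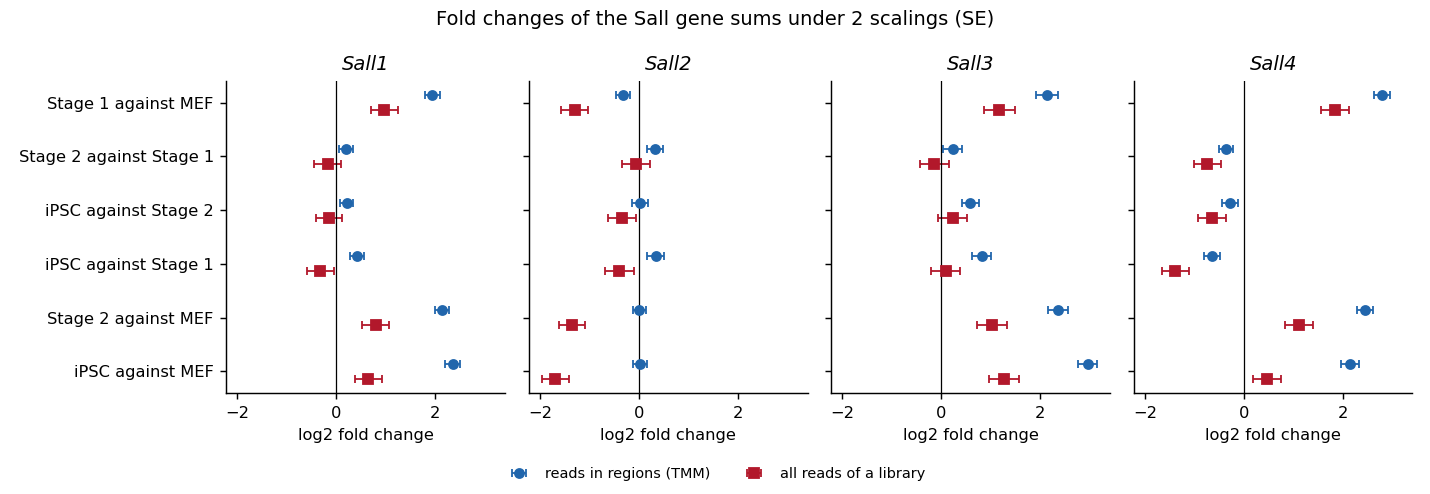
Log2 fold change of each Sall gene sum (horizontal axis) in 6 comparisons (vertical axis), scaled to reads in regions by TMM (circles) or to all reads of a library (squares). Bars are the SE of the fit. Sall1 and Sall3 kept a positive change against MEF under both scalings, from 0.64 to 2.96, whereas Sall2 against MEF lay between -0.32 and 0.02 by TMM and between -1.69 and -1.30 by all reads.

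Across the family, levels per kb of region placed the genes in different orders by group. In MEF, Sall2 had 22.0 ± 3.61 CPM per kb, Sall1 6.72 ± 1.03, Sall3 5.14 ± 1.60 and Sall4 4.26 ± 1.40, and no Sall2 library overlapped with those of the other genes. In Stage 1, Sall4 had 27.7 ± 3.13 CPM per kb, Sall1 26.4 ± 4.08, Sall3 20.9 ± 3.58 and Sall2 18.0 ± 0.313, and the libraries of each pair of neighbours in this order overlapped. In iPSC, Sall3 had 37.1 ± 3.82 CPM per kb, Sall1 35.3 ± 3.69, Sall2 22.6 ± 4.71 and Sall4 17.7 ± 2.42 (SD, n = 3 in each group), and of the neighbours in this order Sall1 and Sall2 did not overlap. Over the 12 libraries, all of which enter each pair, log2 CPM of Sall1 and Sall3 correlated with r = 0.94, Sall1 and Sall4 with 0.87, Sall3 and Sall4 with 0.87, and Sall2 with the others between -0.33 and 0.00. These values describe mainly the step between MEF and the later groups.

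The authors' interval lists also differed between the genes. Of the 19 regions, 5 were on the MEF list, 11 on the Stage 1 list, 12 on the Stage 2 list and 12 on the iPSC list, whereas of all 115000 regions 74.8%, 31.6%, 32.2% and 24.4% were on these lists. The 5 Sall regions on the MEF list were 3 of Sall2, 1 of Sall1 and 1 of Sall4, and no Sall3 region was among them. Just inside the limit of 10 kb, Sall2 region 4 lay 9.88 kb from the gene, with 5.76 CPM in MEF, 4.96 in Stage 1, 7.23 at Stage 2 and 8.48 in iPSC. The nearest region outside it lay 11.1 kb below Sall1, with 2.00 CPM in MEF, 15.5 in Stage 1, 17.6 at Stage 2 and 12.9 in iPSC. At Sall2 the nearest outside region, 14.3 kb away, had 4.50 CPM in MEF, 18.0 in Stage 1, 15.5 at Stage 2 and 18.8 in iPSC. At Sall3 it lay 22.0 kb away, with 12.4 CPM in MEF, 3.51 in Stage 1, 2.31 at Stage 2 and 4.14 in iPSC. These 2 regions did not follow the sums of their genes. The nearest region outside the limit at Sall4 lay 23.7 kb away and had 0.892 CPM in MEF, 5.71 in Stage 1, 26.1 at Stage 2 and 23.4 in iPSC, and a Sall4 sum over 50 kb gave a log2 fold change of 0.10 for Stage 2 against Stage 1.

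Genes for partners of the Sall proteins were described by the same gene sums. Of 15 NuRD subunits, 4 were higher and 4 lower in Stage 1 than in MEF, beside 32.9% of all genes higher and 32.0% lower, with a median log2 fold change of 0.04 against 0.00 over all genes. Mta3, a subunit of the complex, was at 91.1 ± 5.39 CPM in Stage 1 against 28.1 ± 3.27 CPM in MEF (SD, n = 3 each; log2 fold change 1.71, adjusted p = 1.18e-19). In iPSC against Stage 1 none of the 15 was higher and 4 were lower. Of all 17507 genes 25.5% were called in that comparison, 2562 higher and 1895 lower. Among the 4 was Mta1, with 185 ± 18.2 CPM in iPSC against 274 ± 15.6 CPM in Stage 1 (SD, n = 3 each, log2 fold change -0.56, adjusted p = 8.12e-06). The list median was -0.17 against 0.03 over all genes. Of 14 pluripotency partners, 11 were higher and none lower in Stage 1 than in MEF, beside the same 32.9% and 32.0% of all genes, with a median log2 fold change of 0.87. Nr0b1, a nuclear receptor of stem cells, had 22.5 ± 2.28 CPM in Stage 1 against 1.52 ± 1.20 CPM in MEF (SD, n = 3 each; 4.18, adjusted p = 1.11e-18). Scaled to all reads of a library, 6 of the 14 were higher and 4 lower, with a median of -0.09 against -0.97 over all genes, and 1 of the 15 NuRD subunits was higher and 12 lower, with a median of -0.90. In iPSC against Stage 1, 3 pluripotency partners were higher and 2 lower. Of 11 kidney, limb and otic partners 3 were higher and 3 lower in Stage 1 than in MEF, again beside 32.9% and 32.0% of all genes. Scaled to all reads of a library, 1 of 12 was higher and 7 lower, with a median of -0.94 against -0.97 over all genes. The median by TMM was -0.06 against 0.00 over all genes. Pax2, a kidney and ear regulator and the called gene of largest change, had 15.4 ± 5.22 CPM in Stage 1 against 1.45 ± 1.24 CPM in MEF (SD, n = 3 each; 3.73, adjusted p = 5.69e-13). The MEF means of Pax2 and Nr0b1 rest on few reads. In the MEF libraries 3 reads made 0.479 to 1.02 CPM before TMM scaling.

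The genes whose sums were most like each member were found by Pearson's r of log2 CPM over the 12 libraries, among genes that shared no region with it. For Sall4 they were Gm5681 (r = 0.994), Tdh (0.993), Rasgef1a (0.992), Tfap2c (0.991) and Serpina3m (0.990). Each had its highest mean in Stage 1, which follows from the choice by likeness to Sall4 and is not a separate result. Tdh, which encodes the threonine dehydrogenase of mouse embryonic stem cells, had 6.98 CPM in MEF, 102.8 in Stage 1, 85.6 at Stage 2 and 63.9 in iPSC. Tfap2c, a transcription factor of germ cells and trophoblast, had 18.5 CPM in MEF, 90.3 in Stage 1, 76.7 at Stage 2 and 63.8 in iPSC. For Sall1 the nearest were Ell2 (0.993), Ankrd34b (0.988) and Fnbp1l (0.983), followed by Esp5 and Gm44501 (0.983), whose sums were identical. For Sall3 they were Vmn2r91 (0.989), Abca15 (0.988), Hpcal4 (0.988), Slc36a2 (0.986) and Selp (0.985), and for Sall2 the likeness was lower, with Tmem64 at 0.912, Gadd45a at 0.879, 3830406C13Rik and Cdk5rap2 at 0.852 and Pgpep1l at 0.841.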

How the data were processed

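ATAC-seq libraries of 4 groups, 3 per group, were analysed from the raw read counts per region that the authors deposited, with 1 list of intervals per stage. The submitters' processing notes name mm10, HTSeq 0.5.4p3, Bowtie2 2.2.6, DESeq2 1.12.4, Picard 2.6.0 and SAMtools 0.1.19, with no role; how peaks were called, duplicates treated and read ends shifted is not stated there. Reads outside regions (77.7% to 95.5% of all reads) and ambiguous reads (0.0311% to 0.230%) stayed out of the tests. Counts were summed per protein-coding gene of RefSeq GRCm38.p6 over regions within 10 kb of its span, and a region near several genes counted for each. Gene and region counts were each fitted over all 12 libraries with edgeR 4.0.16 (R 4.3.3; TMM, filterByExpr with a minimum count of 10 and total of 15, robust quasi-likelihood F test, Benjamini-Hochberg adjustment over all features, threshold 0.05), after a check on simulated data. CPM of regions and of gene sums use the factors of their own fit, and SE is the log2 fold change over the square root of F. Genes named beside the Sall genes are the 5 most alike of each (prior count 2) and the called gene of largest change without overlap between libraries in partner lists. Members and lists were chosen with earlier results of these data known. Alternatives were DESeq2 1.42.0 and its size factors, all reads as library size, no filter, each library left out, a replicate block, thinning to equal reads, spans only and 50 kb.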

Additional observations from a re-analysis of the deposited data

How the results depend on the processing

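All values are log2 fold changes of gene sums, later group over earlier, unless stated. Of 527 results under an alternative, 443 kept their direction and side of the threshold or moved within their spread. The higher Sall1 and Sall3 levels against MEF did so under each alternative with a test, but their size did not: with 50 kb Sall3 was 0.44, 0.38 and 0.70 in Stage 1, Stage 2 and iPSC against MEF, beside 2.14, 2.37 and 2.96 as reported, and scaled to all reads 1.17, 1.03 and 1.26, with Sall1 at 0.97, 0.79 and 0.64, beside 1.94, 2.14 and 2.35. Scaled to all reads, Sall1 gave -0.18 (Stage 2 against Stage 1), -0.15 (iPSC against Stage 2) and -0.33 (iPSC against Stage 1), Sall2 -0.055, -0.34 and -0.40 and Sall3 -0.14, 0.23 and 0.086 in the same comparisons, and Sall2 -1.35 and -1.69 in Stage 2 and iPSC against MEF. Sall4 gave 1.85, 1.11 and 0.47 against MEF in Stage 1, Stage 2 and iPSC, -0.74 and -1.38 in Stage 2 and iPSC against Stage 1 and -0.64 in iPSC against Stage 2. That scaling takes reads outside regions as the measure of depth. The Sall2 decrease in Stage 1 against MEF lost its call with DESeq2 size factors (-0.31), no filter (-0.31), DESeq2 (-0.30), regions overlapping the span (-0.059) and regions in no other gene (-0.066), and its direction after thinning (0.020) and with 50 kb (0.12); thinning also turned Sall2 region 2 there to 0.13. The Sall2 difference between iPSC and Stage 2 became -0.14 (thinned), -0.0012 (DESeq2), -0.062 (50 kb) and -0.13 (background subtracted). With regions within 50 kb, Sall2 was called higher in Stage 2 than in MEF (0.23), and in iPSC against MEF it was called higher over the span only (0.52) and over regions in no other gene (0.50). With background subtracted, Sall2 gave -0.26 and -0.39 in Stage 2 and iPSC against MEF. The Sall3 increase in iPSC lost its call with 50 kb against Stage 2 (0.31) and Stage 1 (0.25) and after thinning against Stage 2 (0.63), and Sall3 in Stage 2 against Stage 1 became -0.062 with 50 kb. The Sall1 increase in iPSC against Stage 1 lost its call after thinning (0.43), with DESeq2 (0.39), over the span only (0.26) and over regions in no other gene (0.31), and Sall1 with background subtracted was 2.28 in Stage 1 against MEF. For Sall4, the span only gave 3.92, 3.40 and 3.17 in Stage 1, Stage 2 and iPSC against MEF, and regions in no other gene 3.97, 3.43 and 3.09, with -0.54 in Stage 2 against Stage 1. With background subtracted Sall4 gave 3.49 and 2.93 in Stage 1 and Stage 2 against MEF, -0.56 and -1.19 in Stage 2 and iPSC against Stage 1 and -0.64 in iPSC against Stage 2. With 50 kb Sall4 gave 0.10 and -0.14 in Stage 2 and iPSC against Stage 1. The cause was not tested. Without 1 library at a time, Sall2 ranged from -0.37 to -0.17 (Stage 1 against MEF), -0.16 to 0.12 (iPSC against Stage 2), -0.076 to 0.16 (Stage 2 against MEF) and -0.16 to 0.17 (iPSC against MEF), Sall3 from 0.43 to 0.69 (iPSC against Stage 2) and Sall1 from 0.32 to 0.54 (iPSC against Stage 1). Same-numbered libraries did not deviate together (r from -0.10 to 0.11, over 0.1 in 1 of 18 pairs), so the numbers were not taken to pair them; with a replicate block Sall2 in Stage 1 against MEF lost its call (-0.28, adjusted p = 0.0776) and 11323 genes were called there, beside 11358 without it. The number of all genes called ranged over the alternatives from 7931 to 13794 (Stage 1 against MEF), 617 to 3261 (Stage 2 against Stage 1), 41 to 2120 (iPSC against Stage 2, 1648 as reported), 1622 to 9742 (iPSC against Stage 1, 4457 as reported), 7935 to 15582 (Stage 2 against MEF) and 7795 to 16217 (iPSC against MEF). Scaled to all reads, 9.74% of the genes called in Stage 1 against MEF were higher, beside 50.7% as reported, and the shares in iPSC against Stage 1 were 0.842% and 57.5%. Counts of 50 reads or fewer in most Sall regions limit what a single region can show.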
